A study of Mus musculus with 8 samples.

Results

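The DNA replication initiation and fork genes code for the proteins that mark origins, load and start the replicative helicase and build the moving fork. The group is a list of 36 genes, found by symbol. Of these, 34 had 1 row with status OK in each of the 8 gene tables, and Cdt1 and Gins2 were not analysed here. All 34 reached FPKM 1 in at least 1 library and so were among the 17011 genes tested, out of 39009 entries. FPKM counts fragments per kilobase of transcript relative to all mapped fragments of a library, so levels are per length and genes can be set side by side.

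The study measured gene expression by RNA sequencing in 8 mouse libraries, to compare pluripotent lines made with small-molecule compounds (CiPSC) with their source cells and with embryonic stem cells. The sources were 1 library of neural stem cells (NSC), cultured to passage 2 from E13.5 embryos, and 1 library of primary cells from the small intestinal epithelium of E13.5 embryos (IEC). The lines were NSC-CiPSC lines 1, 2 and 3 and IEC-CiPSC lines 10 and 13, and the reference was 1 library of R1 embryonic stem cells (ESC). The strain label of NSC was C57BL/6J-Tg(GOFGFP)11Imeg/RbrcxICR, and those of the NSC-CiPSC, IEC and IEC-CiPSC libraries differed from it only in the number before Imeg, which runs from 11 to 17 in steps of 1 over these libraries in the order of deposit. Whether these numbers stand for separate strains is not given, and they were not used to group samples. ESC came from another background, 129X1 x 129S1, so strain cannot be told apart from the difference between ESC and the lines. Whether the lines came from separate animals is not in the labels, and p-values therefore measure only the spread between these lines.

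Depth differed little, from 0.909 (NSC-CiPSC line 2) to 1.04 (IEC-CiPSC line 13) times that of ESC, while mitochondrial transcripts took 1.94% (NSC-CiPSC line 2) to 11.6% (NSC) of the summed FPKM. The 4 pluripotency markers (Pou5f1, Nanog, Zfp42, Esrrb) summed to FPKM 5.05 in NSC, 0.287 in IEC and 1518 to 2374 in the other libraries. The 4 neural stem cell markers (Fabp7, Nes, Pax6, Olig2) summed to 4809 in NSC and to between 2.18 and 17.1 elsewhere. The IEC library went against its label, since the intestinal epithelium markers Cdx1, Cdx2, Vil1 and Lgr5 summed to 4.49 and none of the 4 reached FPKM 10. In IEC the mesenchyme list of 5 genes summed to 6693, the smooth muscle list of 4 to 3735, the leukocyte list of 5 to 3380, the hepatic list of 4 to 5669 and the pancreatic list of 3 to 1820, against 140.03 for 4 general epithelium genes. Every comparison with the library labelled IEC is a comparison with that mixture. In such bulk samples, fewer cycling cells and less RNA per cycling cell cannot be told apart.

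Origins of replication are bound by the 6-subunit origin recognition complex, to which Cdc6 and Cdt1 add the Mcm2-7 ring, the core of the replicative helicase. Geminin blocks Cdt1 after the start of S phase, which prevents a second round of loading. Cdc45 and GINS then turn the ring into an active helicase, DNA polymerase alpha with primase starts each strand, the RFC loader places the PCNA clamp for polymerases delta and epsilon, and RPA coats the single-stranded DNA. Transcripts of many of these genes are made at the border of G1 and S phase under E2F transcription factors, and mouse pluripotent stem cells are known for a short G1 phase.

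Promoter sequences are shown for 6 of the members with an E2F word, among them Orc1, with the largest rise in both routes, and Rfc3, with the smallest neural change. The words searched on both strands were TTTCCCGC, TTTCGCGC, TTTGCCGC and TTTGGCGC, in the 250 bases before each start given by RefSeq (GRCm38.p6). A gene with several such starts, as Mcm7, Orc2 and Orc4 have, counted if any stretch held a word. RefSeq starts can differ from the locus in the gene tables. The Cdc6 stretch lies inside that locus (98907801 to 98923940), and so does the Mcm7 stretch that holds a word. Promoters were found for 27 of the 34 members, and not for Gins1, Gins4, Gmnn, Mcm4, Pole, Prim2 and Rfc2. A word occurred in 9 of the 27 (33.3%) and in 409 of 11342 tested genes with a promoter (3.61%). The 9 were Orc1, Orc3, Cdc6, Mcm5, Mcm6, Mcm7, Gins3, Pola1 and Rfc3. Mcm10, which had the second largest rise in both routes, Mcm2 and Pcna held no such word in this window. A second word, TTTGAA, found in promoters of genes of G2 phase and mitosis, occurred in 3 of the 27 (11.1%) and in 12.8% of all. A match is a description of letters and not a bound site. The stretches lie at chr4:108579204-108579453 (Orc1, plus strand), chr11:98907901-98908150 (Cdc6, plus), chr8:75109259-75109508 (Mcm5, plus), chr1:128359706-128359955 (Mcm6, minus), chr5:151651209-151651458 (Rfc3, minus) and chr8:95633309-95633558 (Gins3, plus). They are written 5′ to 3′ on the strand of the gene and end at the base before the RefSeq start, with the E2F words in capitals.
Orc1: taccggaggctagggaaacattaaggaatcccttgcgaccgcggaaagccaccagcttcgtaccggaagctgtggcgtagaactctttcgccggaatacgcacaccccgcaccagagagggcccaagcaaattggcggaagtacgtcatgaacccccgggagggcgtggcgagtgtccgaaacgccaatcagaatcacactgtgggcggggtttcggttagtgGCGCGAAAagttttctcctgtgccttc
Cdc6: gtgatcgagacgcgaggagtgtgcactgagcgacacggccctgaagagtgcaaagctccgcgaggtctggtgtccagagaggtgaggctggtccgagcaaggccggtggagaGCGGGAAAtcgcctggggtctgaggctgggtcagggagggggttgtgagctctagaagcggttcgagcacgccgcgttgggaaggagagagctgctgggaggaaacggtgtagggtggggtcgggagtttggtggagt
Mcm5: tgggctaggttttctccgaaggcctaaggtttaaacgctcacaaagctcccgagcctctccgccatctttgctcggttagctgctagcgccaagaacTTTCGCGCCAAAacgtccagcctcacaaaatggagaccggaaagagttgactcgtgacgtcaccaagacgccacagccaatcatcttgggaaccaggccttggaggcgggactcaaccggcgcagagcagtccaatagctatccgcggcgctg
Mcm6: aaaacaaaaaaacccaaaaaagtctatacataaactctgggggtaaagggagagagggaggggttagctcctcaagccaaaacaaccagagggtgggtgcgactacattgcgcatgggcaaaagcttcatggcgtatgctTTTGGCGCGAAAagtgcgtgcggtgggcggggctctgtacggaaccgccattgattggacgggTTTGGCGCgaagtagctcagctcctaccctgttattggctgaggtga
Rfc3: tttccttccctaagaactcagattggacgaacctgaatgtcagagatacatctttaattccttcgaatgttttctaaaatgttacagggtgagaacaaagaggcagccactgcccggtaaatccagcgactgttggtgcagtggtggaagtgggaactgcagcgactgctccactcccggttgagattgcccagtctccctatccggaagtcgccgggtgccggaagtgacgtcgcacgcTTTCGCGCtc
Gins3: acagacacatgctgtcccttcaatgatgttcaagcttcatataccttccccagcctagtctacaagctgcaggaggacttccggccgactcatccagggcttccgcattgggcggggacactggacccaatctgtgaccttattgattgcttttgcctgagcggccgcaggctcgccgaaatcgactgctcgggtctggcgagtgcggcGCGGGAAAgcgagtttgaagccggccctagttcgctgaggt
The word begins 27 bases before the start in Orc1, 138 in Cdc6, 41 in Gins3 and 10 in Rfc3. Mcm5 holds 2 words that overlap, at 153 and 149, and Mcm6 holds 3, of which those at 110 and 106 overlap and the last lies at 47.

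Replication genes were higher in the pluripotent lines than in both kinds of source cell. None was called between the lines and ESC, where 2.81% (NSC-CiPSC) and 3.36% (IEC-CiPSC) of all genes tested were called. Mcm5, in both line groups, and Pola1, in NSC-CiPSC, had an adjusted p under 0.05 in limma but differed from ESC by less than 2-fold. The summed FPKM of the 34 genes was 1137 in NSC and 557 in IEC. It was 2804, 3101 and 2964 in NSC-CiPSC lines 1, 2 and 3, 2807 and 2804 in IEC-CiPSC lines 10 and 13, and 2932 in ESC. For 33 of 34 genes both source libraries lay below all 6 pluripotent libraries, a pattern that 26.3% of all genes tested showed. IEC alone lay below the 6 for all 34 genes (36.2% of all genes) and NSC alone for 33 (36.6%). The exception was Rfc3, a clamp loader subunit, for which NSC (40.6) lay above both IEC-CiPSC lines (33.3 and 32.6).

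**Figure D1:**
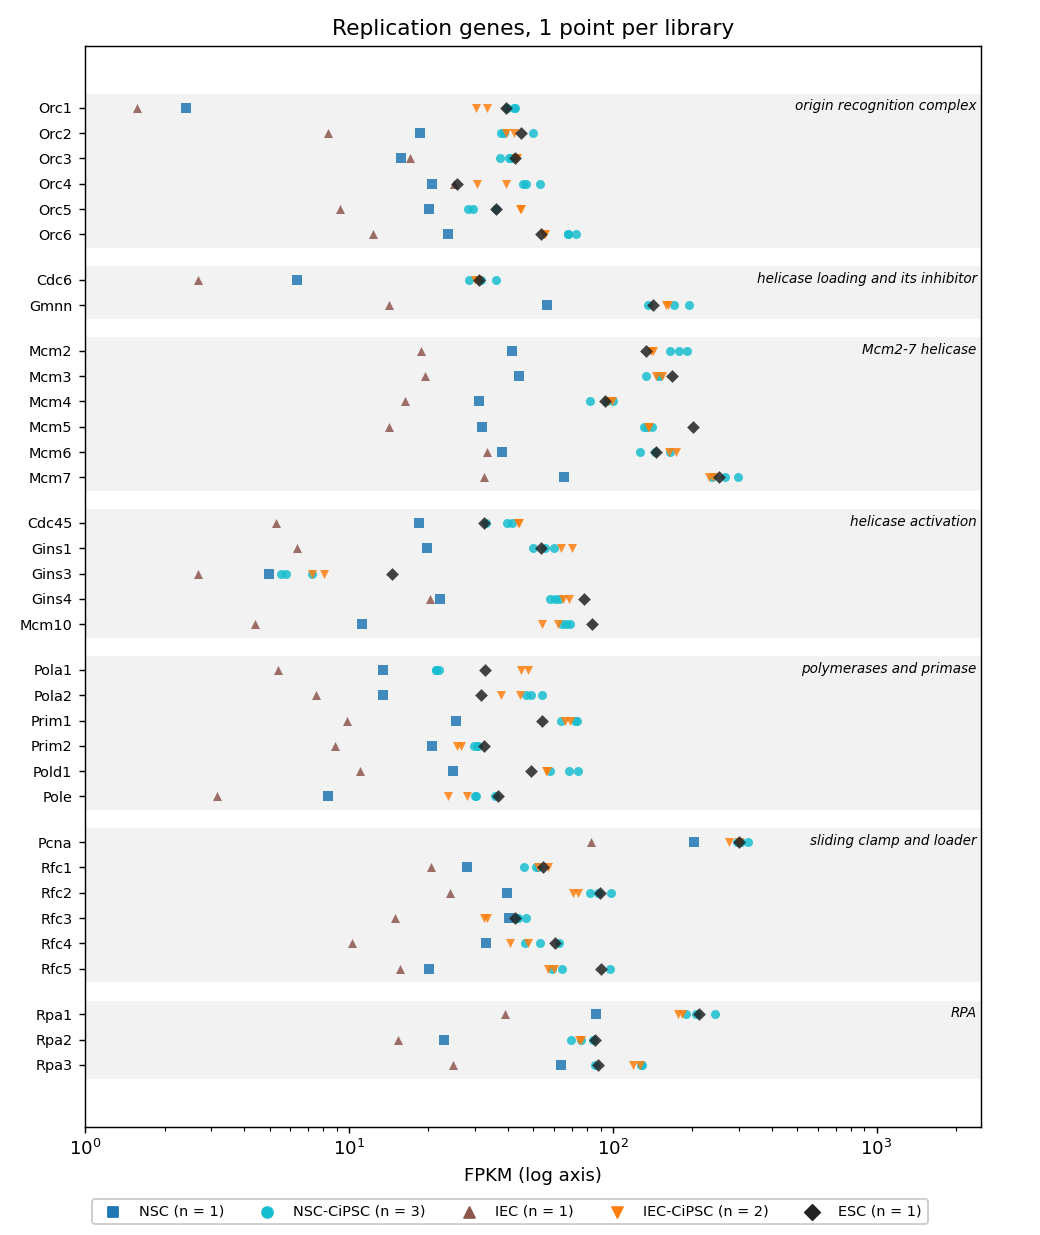
FPKM (log axis) of the 34 replication genes, grouped by role, with 1 point per library. The 2 source libraries lie to the left of the 6 pluripotent libraries for every gene but Rfc3, and Orc1 has the widest gap.

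In the neural route, NSC-CiPSC against NSC, 25 of 34 genes rose and none fell. A gene was called here at a Benjamini-Hochberg adjusted p under 0.05 in limma and a change of at least 2-fold. Of all genes tested, 18.3% were called higher and 20.7% lower, 39.0% in all. The median log2 change was 1.41 over the 34 genes and 0.03 over all genes. The mean of the lines over the NSC level ran from 1.10 times (Rfc3) to 17.2 times (Orc1), with a median of 2.73.

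In the intestinal route, IEC-CiPSC against IEC, 33 of 34 genes rose and none fell. The background was 19.1% called higher and 26.2% lower, 45.3% in all, and the median log2 change was 2.26 against -0.03 over all genes. The mean of the lines over the IEC level ran from 1.40 times (Orc4) to 20.4 times (Orc1), with a median of 5.01. Quantile normalization moved the median of all genes in this route from -0.03 to 0.15 and the share of called genes that were higher from 42.2% to 52.6%, and still 33 members were called. NSC and IEC are 1 library each, so both routes assume that these libraries vary like the lines.

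Within the origin recognition complex, Orc1 changed far more than its partners. Orc1, the largest subunit, which binds ATP, was at FPKM 2.41 in NSC, with an interval in the file from 1.14 to 3.68, and at 1.57 in IEC (0.835 to 2.30). It was at 42.3, 42.7 and 39.6 in NSC-CiPSC lines 1, 2 and 3, at 30.4 and 33.4 in IEC-CiPSC lines 10 and 13, and at 39.3 in ESC. Both source libraries were far below every other library, with no overlap. The log2 change was 3.64 ± 0.09 (SE) in the neural route (adjusted p = 8.8e-05, limma) and 3.68 ± 0.10 in the intestinal route (adjusted p = 4.6e-05), higher in 5 of 5 lines. These SEs and p-values come from the spread between lines. They leave out the intervals of the source libraries, which are wide for Orc1.

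The other subunits rose by smaller amounts. Orc6, the subunit least related in sequence to the rest, was at 23.7 in NSC and 12.3 in IEC, and at 67.5, 72.6 and 67.9 in NSC-CiPSC, 54.8 and 55.4 in IEC-CiPSC and 53.7 in ESC. Its log2 changes were 1.51 ± 0.07 and 2.07 ± 0.07 (SE) in the neural and intestinal routes. Orc2 rose by 1.13 ± 0.19 (0.999 without NSC-CiPSC line 1) and 2.17 ± 0.20, and Orc3 by 1.28 ± 0.08 and 1.30 ± 0.09. Orc5 rose in the intestinal route (2.16 ± 0.17), while its neural change of 0.61 ± 0.16 had an adjusted p of 0.0337 but was under 2-fold. Orc4 was at 20.6 in NSC and 25.1 in IEC, and at 45.5, 46.7 and 53.1 in NSC-CiPSC, 39.4 and 30.7 in IEC-CiPSC and 25.7 in ESC. It rose in the neural route (1.19 ± 0.18, adjusted p = 0.00715), and it was the 1 gene not called in the intestinal route (0.45 ± 0.19, adjusted p = 0.104). For Orc4 the IEC and ESC levels were so close that their intervals overlapped (18.9 to 31.4 and 20.3 to 31.0).

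The balance within the complex differed between source cells and lines. The highest subunit was 9.84 times the lowest in NSC and 16.0 times in IEC, and Orc1 was the lowest in both. In the 6 pluripotent libraries this ratio was 1.80 to 2.46. Without Orc1 it was 1.50 in NSC, 3.02 in IEC and 1.39 to 2.46 in the others. The ratio of Orc6 to Orc1 was 9.84 in NSC and 7.86 in IEC, against 1.60 to 1.71 in NSC-CiPSC, 1.66 and 1.80 in IEC-CiPSC and 1.37 in ESC. These ratios have no replicate check in the source cells.

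Cdc6, the ATPase that brings the Mcm2-7 ring to the origin, was also among the genes with the largest rises. It was at 6.38 in NSC and 2.69 in IEC, and at 36.1, 31.6 and 28.6 in NSC-CiPSC, 30.9 and 29.95 in IEC-CiPSC and 31.2 in ESC, with no overlap between source and pluripotent libraries. The log2 changes were 2.16 ± 0.15 (SE, adjusted p = 0.000948) and 3.09 ± 0.16 (adjusted p = 0.000288). Gmnn, which codes for the loading inhibitor geminin, was at 56.6 in NSC and 14.2 in IEC. It was at 136, 195 and 170.3 in NSC-CiPSC, 159 and 161 in IEC-CiPSC and 142 in ESC. Gmnn rose by 1.53 ± 0.21 in the neural route and by 3.41 ± 0.23 in the intestinal route. The ratio of Gmnn to Cdc6 was 8.87 in NSC, 5.28 in IEC, 3.77 to 6.15 in NSC-CiPSC, 5.15 and 5.39 in IEC-CiPSC and 4.54 in ESC.

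All 6 genes of the Mcm2-7 helicase rose in both routes. The neural log2 changes were 1.53 (Mcm4) to 2.08 (Mcm2) and the intestinal ones 2.30 (Mcm6) to 3.18 (Mcm5). Mcm2 was at 41.4 in NSC and 18.8 in IEC, and at 165, 178 and 192 in NSC-CiPSC, 140 and 142 in IEC-CiPSC and 133 in ESC. Mcm7 was at 65.5 in NSC and 32.6 in IEC, and at 238, 298 and 265 in NSC-CiPSC, 239 and 232 in IEC-CiPSC and 253 in ESC. Mcm5 was at 32.0 in NSC and 14.2 in IEC, 135, 141 and 131 in NSC-CiPSC, 136 and 137 in IEC-CiPSC and 202 in ESC. Source and pluripotent libraries did not overlap for any of the 6, and Mcm5 was highest in ESC. Mcm5 rose by 2.05 ± 0.06 (SE, adjusted p = 0.000138) and by 3.18 ± 0.07 (adjusted p = 2.0e-05), the smallest adjusted p of the 34 genes in the intestinal route.

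The same ring subunits were at the top and bottom in most libraries. Mcm7 was the highest and Mcm4 the lowest in 7 of 8 libraries, and in IEC these places were taken by Mcm6 (33.4) and Mcm5 (14.2). The highest was 2.10 to 2.96 times the lowest over the 8 libraries. Mcm6 differed least between the source libraries among the 6, with 38.0 in NSC and 33.4 in IEC. The median of the 6 subunits was 39.7 in NSC, 19.1 in IEC and 134 to 157 in the pluripotent libraries.

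Of the genes that act on the loaded ring, Mcm10, which stabilises the started helicase, had the largest rise. Mcm10 was at 11.2 in NSC and 4.39 in IEC, and at 68.9, 64.3 and 66.8 in NSC-CiPSC, 53.8 and 61.9 in IEC-CiPSC and 83.4 in ESC. It rose by 2.47 ± 0.10 (SE, adjusted p = 0.000296) and 3.45 ± 0.11 (adjusted p = 7.4e-05). Cdc45, the helicase cofactor, rose by 1.01 ± 0.15 and 2.84 ± 0.16, and its levels were 18.4 in NSC, 5.30 in IEC and 32.5 to 44.3 in the pluripotent libraries. The neural value of Cdc45 is close to 2-fold, and it was 0.94 without NSC-CiPSC line 2 and 0.97 without line 3.

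The GINS subunits differed among themselves. Gins1 rose by 1.42 ± 0.13 and 3.21 ± 0.14 (SE), from 19.9 in NSC and 6.33 in IEC to between 49.8 and 70.3 in the lines. Gins4 rose by 1.40 ± 0.07 and 1.66 ± 0.08, from 22.1 and 20.4 to between 57.6 and 68.4. Gins3 was the lowest of the 3 in all 8 libraries. It was at 4.96 in NSC and 2.68 in IEC, and at 5.79, 5.54 and 7.23 in NSC-CiPSC, 8.03 and 7.28 in IEC-CiPSC and 14.6 in ESC. Its neural change was 0.26 ± 0.19 (adjusted p = 0.295), and it rose in the intestinal route (1.23 ± 0.20, adjusted p = 0.00769). The highest of these subunits was 4.46 times Gins3 in NSC, 7.61 times in IEC, 5.35 times in ESC and 8.05 to 11.3 times in the lines.

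Polymerase and primase genes rose in both routes with exceptions in the neural one. Pole, the catalytic subunit of the leading-strand polymerase epsilon, rose by 1.82 ± 0.15 and 2.68 ± 0.16 (SE). Pold1, the catalytic subunit of polymerase delta, rose by 1.38 ± 0.15 and 2.24 ± 0.16. Pola2, the accessory subunit of polymerase alpha, rose by 1.81 ± 0.14 and 2.31 ± 0.14. For Prim1 and Prim2, the small and large primase subunits, the neural changes were 1.41 ± 0.10 and 0.54 ± 0.07, and the latter was under 2-fold (adjusted p = 0.00398). Both rose in the intestinal route, by 2.66 ± 0.11 and 1.46 ± 0.07. The ratio of Prim1 to Prim2 was 1.24 in NSC, 1.11 in IEC, 1.66 in ESC and 2.14 to 2.58 in the lines.

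Pola1, the catalytic subunit of polymerase alpha, was the gene with the clearest difference between the line groups. It was at 13.499 in NSC, 21.4, 21.3 and 21.9 in NSC-CiPSC, 5.37 in IEC, 44.8 and 47.6 in IEC-CiPSC and 32.7 in ESC. The 3 NSC-CiPSC lines lay below both IEC-CiPSC lines and below ESC, and the lines of each origin were close together. The neural change was 0.64 ± 0.07 (SE, adjusted p = 0.00337, under 2-fold) and the intestinal change was 2.89 ± 0.08 (adjusted p = 4.2e-05). The ratio of Pola2 to Pola1 was 0.998 in NSC, 2.19 to 2.52 in NSC-CiPSC, 1.40 in IEC, 0.994 and 0.793 in IEC-CiPSC and 0.974 in ESC.

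The clamp and its loader had the smallest median change of the 7 roles in both routes. Of these 6 genes, 2 rose in the neural route (median log2 0.74) and all 6 in the intestinal route (median 1.66). Pcna, the clamp itself, was at 203 in NSC and 82.4 in IEC, and at 325, 295 and 307 in NSC-CiPSC, 276 and 300.1 in IEC-CiPSC and 301 in ESC. It had the highest level of the 34 in 7 of 8 libraries, all but NSC-CiPSC line 2, where Mcm7 was higher, and its changes were 0.60 ± 0.09 (SE, adjusted p = 0.00659, under 2-fold) and 1.79 ± 0.09. Rfc3 was at 40.6 in NSC, 43.5, 46.7 and 43.9 in NSC-CiPSC, 15.0 in IEC, 33.3 and 32.6 in IEC-CiPSC and 42.7 in ESC. Its neural change was 0.14 ± 0.07 (adjusted p = 0.166), the smallest of the 34, and it rose in the intestinal route (1.09 ± 0.07). Rfc2 and Rfc5 rose in both routes, by 1.14 and 1.78 in the neural and by 1.53 and 1.84 in the intestinal route. Rfc1 (0.80 ± 0.11) and Rfc4 (0.68 ± 0.20) stayed under 2-fold in the neural route. Rfc5 had the widest spread between NSC-CiPSC lines, at 97.4, 58.8 and 64.2 (coefficient of variation 28.4%), and its intestinal call ended without IEC-CiPSC line 10 or line 13 (adjusted p up to 0.0579).

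Of the 3 genes of RPA, which binds single-stranded DNA, 2 rose in the neural route and all 3 in the intestinal route. Rpa1, the large subunit, was at 86.8 in NSC, 39.1 in IEC and from 177 to 244 in the pluripotent libraries, and rose by 1.28 ± 0.15 and 2.17 ± 0.16 (SE). Rpa2 was at 22.9 in NSC and 15.4 in IEC, rose by 1.69 ± 0.12 and 2.22 ± 0.13, and was the lowest of the 3 subunits in all 8 libraries. Rpa3, the small subunit, was at 63.4 in NSC and 24.7 in IEC, and at 85.6, 129.6 and 128 in NSC-CiPSC, 127 and 119 in IEC-CiPSC and 87.8 in ESC. It rose in the intestinal route (2.27 ± 0.29), and its neural change was 0.81 ± 0.28 (adjusted p = 0.0691). Without NSC-CiPSC line 1, the lowest of the 3 lines, the neural change of Rpa3 was 1.01 and was called.

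Replication transcripts were more abundant in NSC than in IEC. The source libraries have no replicates, so this is a description by size. NSC lay above IEC for 32 of 34 genes, where 48.5% of all genes tested did so, and by at least 2 times for 21 of 34, where 20.7% of all genes did so. The ratio ran from 0.819 (Orc4) to 3.99 (Gmnn), with a median of 2.23, and no gene reached 4 times, where 9.05% of all genes did. Orc3 and Orc4 were the 2 genes lower in NSC (47.0% of all genes). The intervals of the 2 libraries overlapped for 5 genes, namely Orc1, Orc3, Orc4, Gins4 and Rfc5. The share of all genes with such an overlap was not computed, so this count has no background beside it. A list of 10 housekeeping genes was also higher in NSC, with a median FPKM of 153 against 96.8 in IEC. Its summed FPKM was 1704 in NSC and 966 in IEC. The part of such a wider difference in the replication genes was not tested.

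The difference between the routes, tested directly, was negative for 33 of 34 genes, which means a smaller rise in the neural route. It was called for 11, all of them negative, against 12.9% of all genes called lower and 17.6% called higher (30.5% in all). The median was -0.93 over the 34 genes, 0.02 over all genes and -0.12 over genes with a mean FPKM of at least 5. It was -0.56 over a list of 10 housekeeping genes. The rise was larger in both IEC-CiPSC lines than in all 3 NSC-CiPSC lines for 30 of 34 genes, each line set against its own source, and for 38.2% of all genes. All lines of a route share 1 source library, so this pattern does not replicate the difference between the sources. The largest route difference was that of Pola1 (-2.25 ± 0.10 SE, adjusted p = 0.000334), followed by Gmnn (-1.88), Cdc45 (-1.83), Gins1 (-1.79) and Orc5 (-1.55). Pola1 is X-linked, and its difference of -1.07 between the line groups is contained in this value. Over 355 X-linked genes with a mean FPKM of at least 5, the line groups differed by a median of -0.86. The part of the X chromosome here was not tested. Prim1, Rfc4, Mcm3, Pcna, Mcm5 and Orc2 were called with values from -1.32 to -1.04. Orc1, with the largest rises, had -0.04 ± 0.14 (adjusted p = 0.847), and Orc4 was the 1 gene with a positive value (0.74 ± 0.26, adjusted p = 0.0954). The line groups differed by a median of 0.06 over the 34 genes, so the contrast largely restates the gap between NSC and IEC. The NSC and IEC libraries enter this contrast in full, and neither has a replicate. Non-epithelial markers move with it: the mesenchyme, leukocyte and hepatic sums were 6693, 3380 and 5669 in IEC against 1.03, 0.480 and 0.319 in NSC, and their part in the result was not tested. Quantile normalization moved the median of all genes from 0.02 to -0.14 and the share of higher genes among the called from 57.6% to 47.5%, and it called 19 members, none of them higher. Without IEC-CiPSC line 13 the count was 7, and without line 10 it was 8. The calls of Orc2, Orc5, Gmnn and Rfc4 ended in both of these fits (adjusted p from 0.0520 to 0.147). Those of Orc2 and Rfc4 also ended without NSC-CiPSC line 3, and that of Orc2 without line 2. The call of Orc2 ended as well with no filter on low values (adjusted p = 0.0647), with median-of-ratios scaling (0.0729) and without the variance trend (0.0524), 7 of 12 alternatives in all.

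**Figure D2:**
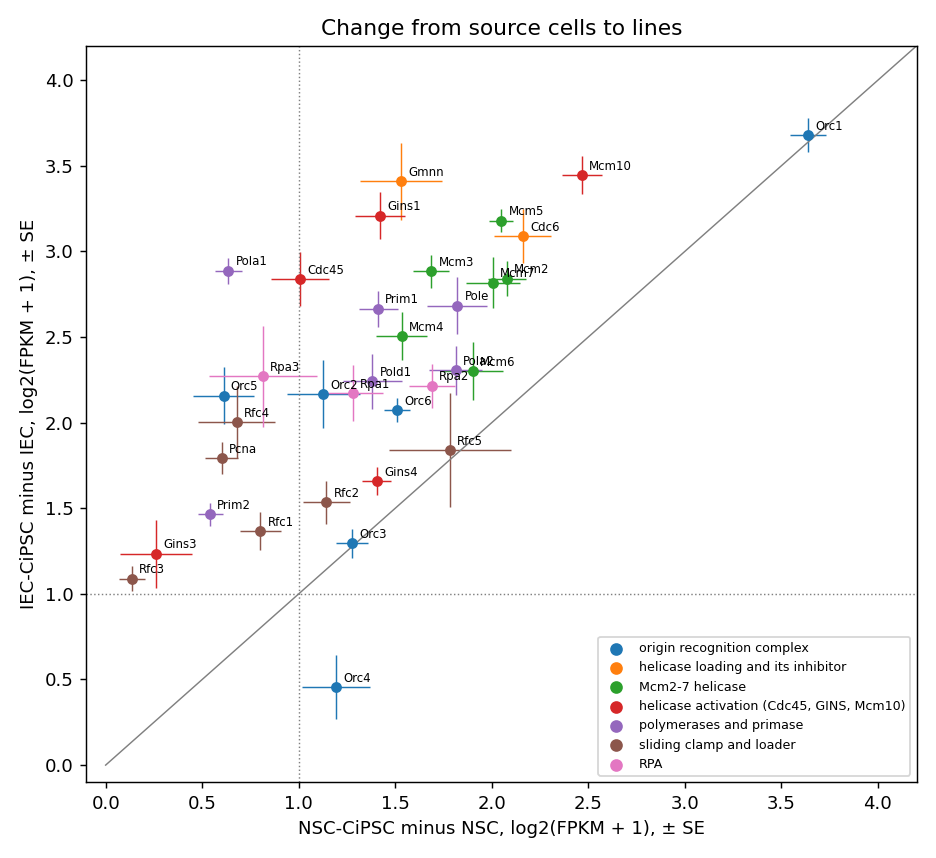
Log2 change in the neural route (x axis) and the intestinal route (y axis), on the log2(FPKM + 1) scale, for the 34 genes, coloured by role, with SE bars. The solid line marks equal changes and the dotted lines mark 2-fold, and Orc4 is the 1 gene below the solid line while Pola1 is the farthest above it.

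The lines were compared with ESC to ask how closely the reprogrammed cells match the reference. No replication gene was called in NSC-CiPSC against ESC or in IEC-CiPSC against ESC with limma, where 2.81% (0.946% higher, 1.86% lower) and 3.36% (1.63% higher, 1.73% lower) of all genes were called. At an unadjusted p under 0.05 there were 11 and 10 of the 34 genes, against 22.1% and 24.1% of all genes. The median log2 difference was -0.01 and -0.05, and the estimate lay within 0.5 of 0 for 29 and 30 of the 34 genes. The 95% intervals were 0.346 to 1.73 wide in NSC-CiPSC (median 0.717) and 0.367 to 1.83 in IEC-CiPSC (median 0.760), so the size of a detectable difference varied by gene. ESC lay within the range of the 5 lines for 19 genes (59.4% of all genes tested), above all lines for 8 (20.0%) and below all for 7 (20.5%). These comparisons share the 1 ESC library.

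Gins3 stood furthest below ESC in both line groups, and Mcm5 was the 1 gene with an adjusted p under 0.05 in both. Mcm5 had -0.57 ± 0.06 (SE, adjusted p = 0.0302) in NSC-CiPSC and -0.56 ± 0.07 (adjusted p = 0.0319) in IEC-CiPSC, both under 2-fold, and was lower in 5 of 5 lines. Pola1 had -0.58 ± 0.07 (adjusted p = 0.0375, under 2-fold) in NSC-CiPSC. Gins3 had -1.13 ± 0.19 (adjusted p = 0.0621) and -0.85 ± 0.20 (adjusted p = 0.10), with all 5 lines at or below 8.03 against 14.6 in ESC (interval 13.0 to 16.2). Tested only among genes with a mean FPKM of at least 5, Gins3 was called lower in NSC-CiPSC (adjusted p = 0.0489). Both lie on chromosome 8, Mcm5 at 75109528 to 75128439 and Gins3 at 95633559 to 95645059 (mm10, whole genes). Genes of chromosome 8 as a whole were lower in both line groups than in ESC, and both comparisons share the 1 ESC library. Over 495 such genes with a mean FPKM of at least 5 the median difference was -0.23 in NSC-CiPSC and -0.29 in IEC-CiPSC, with 70.7% and 72.5% negative. Over 9120 genes of the other autosomes it was 0.08 and 0.02, with 40.4% and 47.3% negative. For NSC-CiPSC against IEC-CiPSC, the median was 0.05 over the chromosome 8 genes and 0.06 over the other autosomes. The other chromosome 8 members were Gins4 (-0.37 and -0.23) and Orc6 (0.36 and 0.04), and Orc6 was not lower. The 29 members on other autosomes had differences from -0.33 to 0.89 in NSC-CiPSC and from -0.62 to 0.48 in IEC-CiPSC. The part of the chromosome in these values was not tested.

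**Figure D3:**
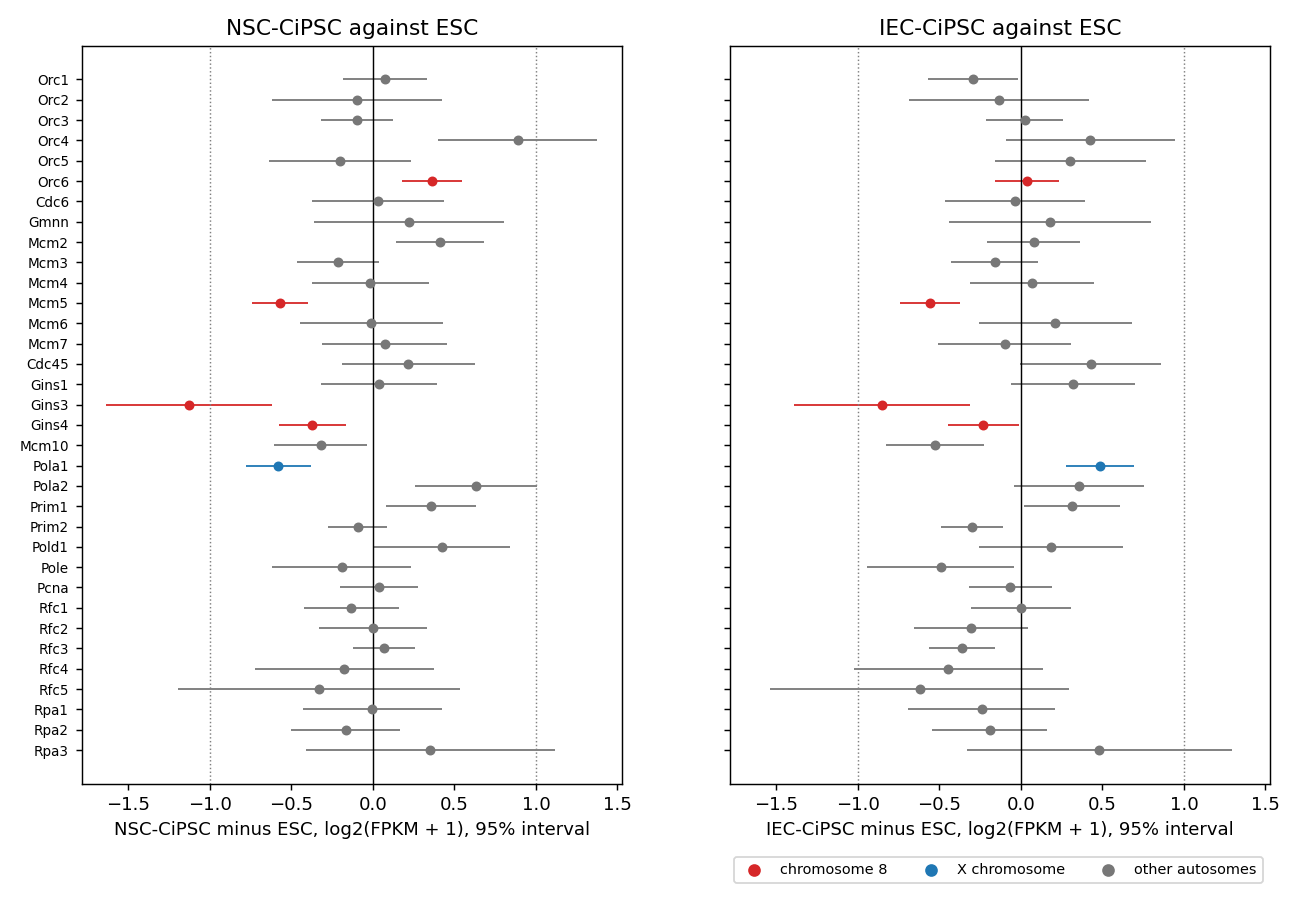
Difference of each line group from ESC on the log2(FPKM + 1) scale with 95% intervals from limma, by gene, with chromosome 8 and X-linked genes in colour. Gins3 and Mcm5 lie to the left in both panels, and Pola1 lies to the left for NSC-CiPSC (-0.58) and to the right for IEC-CiPSC (0.49).

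Between the line groups, NSC-CiPSC against IEC-CiPSC, 1 replication gene was called lower, Pola1, and none higher. Of all genes, 2.76% were called lower and 1.56% higher (4.32% in all), and 9 of the 34 had an unadjusted p under 0.05, where 28.8% of all genes did. The difference of Pola1 was -1.07 ± 0.06 (SE, adjusted p = 0.00623). It was at least 2-fold in every leave-one-out fit, but the adjusted p rose to 0.0522 without NSC-CiPSC line 3, to 0.0647 without IEC-CiPSC line 10 and to 0.0741 without line 13. Pola1 is X-linked (X, 93304767 to 93632155). Over 355 X-linked genes with a mean FPKM of at least 5, the median difference between the line groups was -0.86, with quartiles of -1.13 and -0.51 and 89.6% negative. Over the other autosomes it was 0.06, with 42.5% negative. Against ESC the X-linked genes had a median of 0.88 in IEC-CiPSC and 0.01 in NSC-CiPSC. The part of the X chromosome in the value of Pola1 was not tested. The lines did not overlap in 19 genes, with NSC-CiPSC above IEC-CiPSC in 12 (26.8% of all genes) and below in 7 (21.0%). Rfc3 (0.43 ± 0.05, adjusted p = 0.0273) and Orc6 (0.33 ± 0.05, adjusted p = 0.0420) were higher in NSC-CiPSC, under 2-fold.

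Replicate lines were close for most of these genes. The coefficient of variation ran from 1.57% (Pola1) to 28.4% (Rfc5) over the 3 NSC-CiPSC lines, with a median of 9.32%. Over the 2 IEC-CiPSC lines it ran from 0.149% (Mcm5) to 17.6% (Orc4), with a median of 3.22%. Over all 6 pluripotent libraries the highest level was 1.16 (Orc3) to 2.64 (Gins3) times the lowest, with a median of 1.40. Half-widths of the 95% intervals in the files had medians of 7.05% to 15.8% of the level per library, and were widest for Orc1 in NSC (52.5%).

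A list of other replication genes, such as further polymerase subunits and fork factors, was set beside the 34. Of 37 tested, 20 rose and 1 fell in the neural route (median log2 1.20), and 31 rose and 1 fell in the intestinal route (median 1.89). Over all genes tested, 18.3% were called higher and 20.7% lower in the neural route, and 19.1% and 26.2% in the intestinal route. Rif1, a regulator of replication timing, rose by 2.91 ± 0.34 and 2.99 ± 0.36 (SE). Ticrr, needed to start origins, rose by 2.18 ± 0.21 and 3.25 ± 0.22, Dna2, a nuclease of lagging-strand processing, by 2.06 ± 0.11 in the neural route, and Chtf18, part of another clamp loader, by 3.61 ± 0.09 in the intestinal route. The gene that fell in both was Pold4, the smallest subunit of polymerase delta (-1.99 and -2.09), named after its values were seen. None of the 37 was called against ESC in either line group, where 2.81% (NSC-CiPSC) and 3.36% (IEC-CiPSC) of all genes were.

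Of 8 genes that supply nucleotides, all 8 rose against IEC (median 1.80) and 3 rose against NSC (median 0.63). Over all genes tested, 19.1% were called higher against IEC and 18.3% against NSC. The neural change was negative for 2 of the 8, and neither was called. Dck was at 30.3 in NSC and 17.4 to 18.9 in NSC-CiPSC, and Rrm1 at 78.8 and 61.6 to 68.7. Rrm2, the small subunit of ribonucleotide reductase, was at 172 in NSC, 17.6 in IEC and from 199.6 to 312 in the pluripotent libraries, with a route difference of -3.11 ± 0.25 (SE, adjusted p = 0.00176). Dut, the dUTPase, rose by 2.41 ± 0.10 and 2.72 ± 0.10 and was the 1 gene of the list called against ESC. It was higher in NSC-CiPSC (1.01 ± 0.10, adjusted p = 0.0208), where 0.946% of all genes were called higher. Dtymk rose by 2.01 ± 0.15 and 2.10 ± 0.15.

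E2F and pocket protein genes moved in both directions. In the neural route 2 of 13 rose (E2f4 and E2f1) and 3 fell (Rb1, Rbl2 and E2f6), and in the intestinal route 3 rose (E2f4, E2f8 and E2f1) and 2 fell (Rbl2 and Rb1). The medians of the 13 genes were -0.09 and 0.81. Of all genes tested, 18.3% were called higher and 20.7% lower in the neural route, 39.0% in all. In the intestinal route 19.1% were called higher and 26.2% lower, 45.3% in all, so the counts of this list were near those shares. Rb1, the retinoblastoma protein that holds E2F factors inactive, was at 26.7 in NSC, 6.92 in IEC and from 2.26 to 5.59 in the pluripotent libraries. E2f4 was at 20.2 in NSC, 26.0 in IEC and from 74.6 to 111 in the pluripotent libraries. E2f1 and E2f6 were named after their values were seen. Against ESC 1 gene was called, E2f2, lower in IEC-CiPSC (-1.64 ± 0.23, adjusted p = 0.0439), where 1.73% of all genes were called lower.

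The genes of G2 phase and mitosis mark cells later in the cycle. Of 20, 4 rose and 1 fell against NSC (median 0.47), while 19 rose against IEC (median 2.37). The shares over all genes tested were 18.3% higher and 20.7% lower against NSC, and 19.1% higher and 26.2% lower against IEC. The count of 4 rises against NSC was thus near the share of all genes. The genes that rose against NSC were Bub1 (1.50 ± 0.21 SE), Ccnb2 (1.22 ± 0.26), Aurka (1.17 ± 0.10) and Birc5 (1.03 ± 0.08). The proliferation marker Mki67 fell (-1.05 ± 0.14), and it was the 1 gene not called against IEC (0.70 ± 0.15). Birc5 and Mki67 were named after their values were seen. The route difference was called lower for 19 of 20 (median -1.83), where 12.9% of all genes were called lower. Ccnb1 had the largest value (-2.46 ± 0.09, adjusted p = 0.000175). The median level of the list was 46.4 in NSC, 12.8 in IEC and 71.0 to 90.2 in the pluripotent libraries, and that of the 34 replication genes was 23.3, 14.2 and 54.3 to 62.6. The difference between these 2 lists was not tested. Of 10 housekeeping genes, 2 rose and 2 fell in the neural route (median -0.21), and none rose and 1 fell in the intestinal route (median 0.51). The route difference of the housekeeping list had a median of -0.56 and was negative for 8 of 10 genes. It was called lower for 1 and higher for 1, where 12.9% and 17.6% of all genes were.

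**Figure D4:**
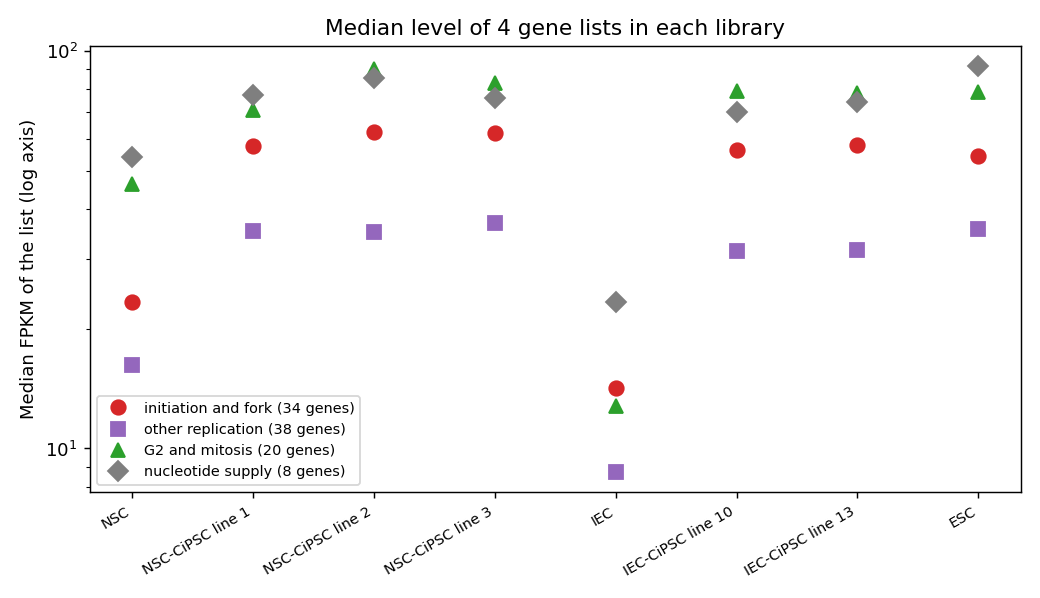
Median FPKM (log axis) of 4 gene lists in each of the 8 libraries, 1 point per list and library. The replication genes stand at 23.3 in NSC and 14.2 in IEC and between 54.3 and 62.6 in the pluripotent libraries, and the G2 and mitosis list stands above them in 7 of 8 libraries, all but IEC.

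Overlapping genes limit some of these levels. By annotation (GENCODE M21), 15 members overlap another gene of any kind. Of these, 7 overlap a protein-coding gene on the other strand, namely Orc2, Orc4, Orc6, Mcm7, Cdc45, Rfc4 and Rfc5. Among these 7 the overlap is longest for Orc2 with Nif3l1 (19046 bp). The partner with the highest level is Eif4a2, at up to FPKM 649, which overlaps Rfc4 by 194 bp. Whether counting used strand is not given in the sources used here, and without it reads of the partners cannot be told apart. Strand does not separate a partner on the same strand, as the snoRNA gene Gm26277 (up to FPKM 74.0), which overlaps Pole by 152 bp.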

How the data were processed

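Gene levels were FPKM values used as the authors deposited them, together with the bounds of their 95% intervals. The submitters' processing notes name TopHat, Cufflinks and mm10, and tool versions and the annotation release are not given in the sources used here. The labels' protocols describe RNA isolation with an RNeasy Plus Mini kit and library preparation with NEBNext Ultra. Entries with status LOWDATA (428) or FAIL (19) and 162 patch entries were left out, and GENCODE M21 matched 37451 entries by identifier. Intervals of low-level entries gave a depth of about 9.33 M (NSC-CiPSC line 2) to 10.7 M fragments (IEC-CiPSC line 13).

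The 17011 genes that reached FPKM 1 in any library were tested on log2(FPKM + 1), which understates changes of low genes. limma 3.58.1 (R 4.3.3) fitted a mean per group to all 8 libraries, with trended empirical Bayes moderation (3 residual and 1.10 prior degrees of freedom), and was tested on simulated data. Groups of 1 library were assumed to vary like the lines. The simulated libraries were all given the spread of the NSC-CiPSC lines, so they could not test this assumption. Benjamini-Hochberg adjustment covered all genes tested, and limma gave every adjusted p in the text. Source libraries were compared by size. Alternatives were other pseudocounts, filters, scalings and variance models, fits of fewer groups, and leaving out each line.

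The members, lists and tests were chosen with earlier results of these data known. Named genes are all members and, per list and comparison, up to 3 called genes with the largest change, of which not every one is printed. Python 3.11.15 (pandas 2.3.3, NumPy 2.4.6, matplotlib 3.10.9) made tables and figures.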

Additional observations from a re-analysis of the deposited data

Results flagged for a closer look

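The neural and the intestinal route differed, by the direct test of the difference in limma, for 11 of the 34 replication genes, each with a smaller rise in the neural route. Of all genes tested, 30.5% were called for this difference, so the count alone was near that share. By direction, 12.9% of all genes were called lower and 17.6% higher. On the log2(FPKM + 1) scale the differences were -1.04 for Orc2 (adjusted p = 0.0492) and -1.55 for Orc5 (adjusted p = 0.0107) in the origin recognition complex, and -1.88 for Gmnn (adjusted p = 0.0141). They were -1.20 for Mcm3 (adjusted p = 0.00472) and -1.13 for Mcm5 (adjusted p = 0.00186) in the helicase ring, and -1.83 for Cdc45 (adjusted p = 0.00553) and -1.79 for Gins1 (adjusted p = 0.00407) among its activators. They were -2.25 for Pola1 (adjusted p = 0.000334) and -1.25 for Prim1 (adjusted p = 0.00547) in polymerase alpha with primase, and -1.19 for Pcna (adjusted p = 0.00413) and -1.32 for Rfc4 (adjusted p = 0.0303) at the clamp. The calls of 7 of the 11 held in every alternative run, and those of Orc5, Gmnn and Rfc4 ended in at least 1 fit that left out a line. The call of Orc2 ended in 7 of 12 alternatives, among them the fit with no filter on low values, median-of-ratios scaling and the fit with no variance trend. The NSC and IEC libraries stand unreplicated in this contrast, and it largely restates the gap between them. Pola1 is X-linked, and the part of the X chromosome in its value was not tested.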

How the results depend on the processing

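No member changed direction among the results recomputed. The neural route kept 24 to 25 called members and the intestinal route 32 to 33 over all alternatives, and 23 of 25 and 32 of 33 were called in every one. The neural calls of Cdc45 (without NSC-CiPSC line 2 or 3) and Orc2 (without line 1) were just under 2-fold there, with log2 values of 0.94 and 0.97 for Cdc45 and 0.999 for Orc2. NSC-CiPSC against ESC had 1 called member (Gins3, lower) with a filter of mean FPKM of at least 5, and none otherwise. IEC-CiPSC against ESC had 0 throughout. Leaving out 1 line at a time gave 0 to 1 called members in NSC-CiPSC against IEC-CiPSC, where Pola1 was lost without NSC-CiPSC line 3, IEC-CiPSC line 10 or line 13. It gave 7 (without IEC-CiPSC line 13) to 14 (without NSC-CiPSC line 1) in the route difference, which had 19 with quantile normalization, 15 with a pseudocount of 0.1 and 11 in the main analysis. The cause was not tested. NSC lay above IEC for 32 members also with median-of-ratios scaling, an alternative chosen after seeing the data. Counts over all genes ran from 4464 to 7814 (6639 as reported) in the neural route, from 4593 to 8483 (7714) in the intestinal route, from 2796 to 5697 (5191) in the route difference, from 187 to 720 (478) and 123 to 890 (572) for NSC-CiPSC and IEC-CiPSC against ESC, and from 99 to 952 (735) between the line groups. No paired analysis was possible because the groups compared share no replicate numbers in the labels.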
